A study of Drosophila melanogaster with 4 samples.

Results

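The regions described here are 1481 autosomal stretches of 3 to 10 kb that were marked by histone H4 monomethylated at lysine 20 (H4K20me1) in both ChIP replicates of adult fly heads. They are 1481 of the 6711 stretches that the intersection of both replicate lists gave over the whole genome, and 1481 of the 4101 on the arms 2L, 3L and 3R. A region was kept when each of its bases lay in a cluster of replicate 1 and in a cluster of replicate 2, when it was at least 3 kb and under 10 kb long, and when it lay on 2L, 3L or 3R. The regions were thus chosen by the cluster positions in the authors' lists, and their number, lengths, scores and positions are given as a description, without a test. The series holds 2 ChIP libraries, made with the 3rd lot of an antibody against H4K20me1, and 2 input libraries of chromatin that was not immunoprecipitated, all from wild-type Oregon-R flies (the modENCODE stock) collected as mixed adults in population cages. The labels name sieving of heads and no sorting of cell types, and the sexes are not named in the labels. The labels do not state that the replicates were separate collections of flies, and their differences could be technical. The depth of sequencing is unknown. Positions are given on FlyBase release 5 with the first base as 1.

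H4K20me1 is placed on nucleosomes by the methyltransferase PR-Set7, and the Suv4-20 enzymes can carry it on to the di- and trimethylated forms. Proteins with MBT repeats, such as L(3)mbt of the fly, bind the lower methylation states. The mark is known for its part in chromosome condensation and in the cell cycle, and in mammals it also covers the bodies of many transcribed genes and the inactive X chromosome. The adult fly head consists largely of cells that no longer divide, among them neurons, glia, photoreceptors and fat body. No annotation or sequence of release 5 was used here, so whether these regions match single genes could not be checked. They are therefore called by their length, regions of 3 to 10 kb, and are named by position.

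Regions of 3 to 10 kb held a large part of the marked sequence of these arms. They summed to 7.88 Mb, or 42.8% of the 18.4 Mb marked in both replicates, against 20.5% in the 2231 stretches under 3 kb and 36.7% in the 389 stretches of 10 kb or more. They covered 10.4% of the 3 arms. Regions whose clusters were 3 to 10 kb long in each list held 25.4% of the marked length. The order of the classes depended on the processing, and stretches of 10 kb or more held the larger share under 5 other treatments of the lists. Regions of 3 to 10 kb then held 39.4% against 43.5% in replicate 1 alone, 39.9% against 42.8% in replicate 2 alone, 45.4% against 50.1% in the upper 50% by score, and 41.8% against 44.0% among stretches covering 50% of both parents. The gap was widest after merging clusters under 1 kb apart, at 31.4% against 58.3%. Their median length was 4838 bp and the middle 50% lay between 3749 and 6556 bp. The shortest were the most frequent, with 461 regions of 3 to 4 kb, 317 of 4 to 5 kb, 239 of 5 to 6 kb, 153 of 6 to 7 kb, 126 of 7 to 8 kb, 102 of 8 to 9 kb and 83 of 9 to 10 kb. At the lower limit, 2 regions of 3000 bp on 3R (from 16675707 and from 21882257) were just inside, which scored 1.40 and 1.05 in replicate 1 and 1.42 and 0.618 in replicate 2. Just outside were 2 stretches of 2999 bp on 2L (from 6895287 and from 10257799), which scored 0.983 and 0.731 in replicate 1 and 0.952 and 0.965 in replicate 2. At the upper limit the last regions inside were 9984 and 9968 bp long and scored 2.09 and 1.58 in replicate 1 and 1.66 and 1.18 in replicate 2. The first stretches outside had 10038 and 10048 bp and scored 2.28 and 2.00 in replicate 1 and 1.78 and 2.23 in replicate 2.

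All 3 arms carried these regions. There were 17.9 per Mb on 2L (413 regions), 19.6 per Mb on 3L (480) and 21.1 per Mb on 3R (588). They covered 9.56% of 2L, 10.2% of 3L and 11.4% of 3R. Outside the set, stretches of the same length numbered 22.7 per Mb on 2R and 14.9 per Mb on X. Stretches of 10 kb or more were spread more unevenly over the same 5 arms, from 1.34 per Mb on X to 6.13 per Mb on 3R.

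The lists give each cluster 1 score from the authors, on a scale that the files do not state, and scores are used here to rank clusters and not as folds. A region takes the scores of the clusters it lies in, its parent clusters. Replicate 1 scores of the regions ran from 0.421 to 3.14 with a median of 1.26, and replicate 2 scores ran from 0.463 to 2.67 with a median of 1.25. The middle 50% was wider in replicate 1, from 0.929 to 1.63, than in replicate 2, from 1.04 to 1.51. Of the 1481 regions, 704 (47.5%) scored higher in replicate 1.

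For most regions both lists gave clusters of 3 to 10 kb, while a sizeable minority were cut from longer ones. In 948 regions (64.0%) both parent clusters were themselves 3 to 10 kb long. In the other 533 (36.0%) at least 1 parent was 10 kb or more and the region was a part of it. Replicate 2 had the longer parent in 261 regions and replicate 1 in 239, and in 33 both parents were 10 kb or more and overlapped over a shorter stretch. In the 261, the median parent was 5776 bp in replicate 1 and 13868 bp in replicate 2, and in the 239 it was 14916 bp in replicate 1 and 5952 bp in replicate 2.

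Some long clusters gave several regions. The 491 clusters of 10 kb or more that replicate 1 had on these arms held regions in 187 cases (38.1%), and 73 of these held 2 to 4. In replicate 2 it was 200 of 529 (37.8%), and 84 held 2 to 5. The most extreme case was a region on 3L from 22295277 to 22300831 (5555 bp). It lay in a replicate 1 cluster of 106159 bp and in a replicate 2 cluster of 5566 bp. Next came 2 neighbours on 2L, from 3136856 to 3146278 and from 3123051 to 3132316, which shared a replicate 2 cluster of 69073 bp while replicate 1 had clusters of 13285 and 9266 bp there.

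**Figure D1:**
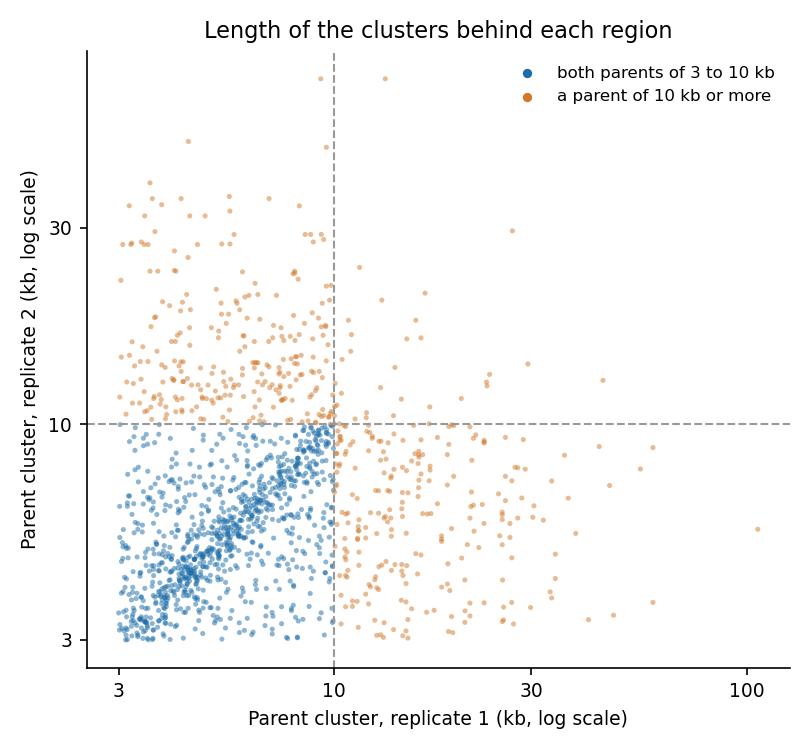
Length of the replicate 1 parent cluster (horizontal axis, kb, log scale) and of the replicate 2 parent cluster (vertical axis, kb, log scale) of each of the 1481 regions, with dashed lines at 10 kb. The 948 regions with both parents of 3 to 10 kb fill the lower left square, many of them along the diagonal, and the 533 others spread over the upper and right-hand parts.

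Among the 948 regions with both parents of 3 to 10 kb, the edges were close in most cases. Starts differed between replicates by a median of 320 bp and ends by a median of 274 bp. However, 1 in 10 starts differed by more than 2385 bp, and 1 in 10 ends by more than 2271 bp. Neither replicate was wider throughout, since the replicate 1 cluster was the longer in 498 and the replicate 2 cluster in 450. The median shared part was 84.5% of the span that the 2 clusters covered together, and in 550 regions (58.0%) it was 80% or more. Lengths of the 2 parents correlated with a Spearman's rho of 0.478 (Pearson's r = 0.475, n = 948 regions). Over all 1481 regions, with the longer parents included, rho was 0.215 (Pearson's r = -0.0113). The regions share the libraries and the caller, so these values describe the lists and are no test.

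Seen from each replicate alone, most clusters of this length had a counterpart. Replicate 1 had 1554 clusters of 3 to 10 kb on the 3 arms, of which 1193 (76.8%) gave a region, 321 (20.7%) were shared over less than 3 kb at a stretch, and 40 (2.57%) shared no base. In replicate 2, 1177 of 1638 (71.9%) gave a region, 400 (24.4%) gave shorter stretches, and 61 (3.72%) gave none. The clusters without a shared base had lower scores and were shorter than those that gave a region. In replicate 1 their median score was 0.846 and their median length 3432.5 bp, against 1.20 and 5368 bp for those giving a region. In replicate 2 these values were 0.899 and 3666 bp, against 1.24 and 5443 bp. A longer cluster can more easily share 3 kb, so the contrast in length is partly built into the rule.

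Within the set, longer regions had higher scores. The lower of the 2 replicate scores had a median of 0.937 in regions of 3 to 4 kb, 1.04 at 4 to 5 kb, 1.16 at 5 to 6 kb, 1.22 at 6 to 7 kb, 1.31 at 7 to 8 kb, 1.25 at 8 to 9 kb and 1.39 at 9 to 10 kb. Spearman's rho of length with this lower score was 0.354 over the 1481 regions (Pearson's r = 0.325), and by arm it was 0.328 on 2L, 0.348 on 3L and 0.381 on 3R. The spread at one length was wide. At 3 to 4 kb the 10th and 90th percentiles were 0.638 and 1.44, and at 9 to 10 kb they were 0.843 and 1.83, so the strongest 10% of the shortest regions exceeded the median of the longest. Medians by arm were 1.06 on 2L, 1.13 on 3L and 1.12 on 3R. Among all stretches of these arms, the median was 1.11 for regions of 3 to 10 kb, 0.643 under 3 kb and 1.42 at 10 kb or more.

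**Figure D2:**
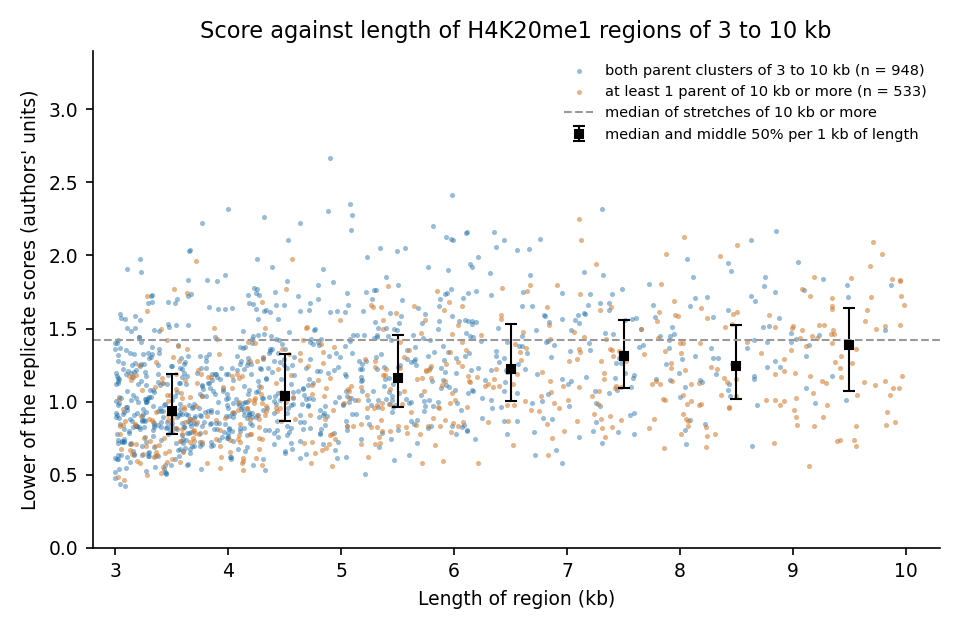
Lower of the 2 replicate scores (vertical axis, authors' units) against length (horizontal axis, kb) for the 1481 regions, coloured by the length of their parent clusters. Squares and bars give the median and the middle 50% for each 1 kb of length, from 0.937 at 3 to 4 kb to 1.39 at 9 to 10 kb, and the dashed line marks 1.42, the median of stretches of 10 kb or more.

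The replicates ranked these regions alike to a moderate degree, and more so at greater length. Scores of replicate 1 and replicate 2 correlated with a Spearman's rho of 0.598 (Pearson's r = 0.639) over the 1481 regions. Spearman's coefficient was 0.373 at 3 to 4 kb, 0.559 at 4 to 5 kb, 0.642 at 5 to 6 kb and 0.723 at 9 to 10 kb. In the 948 regions with both parents of 3 to 10 kb it was 0.687 in all, 0.515 at 3 to 4 kb and 0.718 at 9 to 10 kb, where 15 such regions remained. By arm rho was 0.529 on 2L, 0.599 on 3L and 0.643 on 3R. For comparison, it was 0.707 in stretches of 10 kb or more and 0.00566 in stretches under 3 kb. Stretches also carry the scores of their whole parent clusters. Those under 3 kb include overlaps shorter than 1301 bp, the length of the shortest cluster, and the lengths of their 2 parents had a rho of -0.0820. Whether short clusters ranked alike in both replicates was not tested. Of the 371 regions in the upper 25% of replicate 1, 237 (63.9%) were also in the upper 25% of replicate 2.

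**Figure D3:**
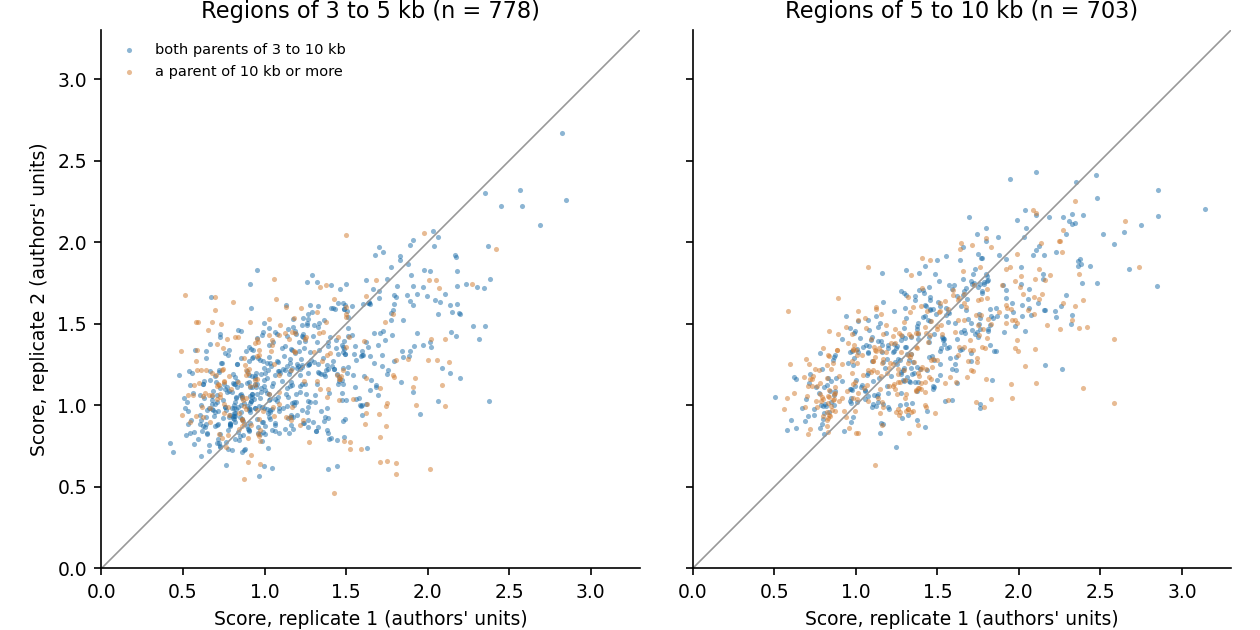
Score in replicate 1 (horizontal axis) against score in replicate 2 (vertical axis), both in the authors' units, for 778 regions of 3 to 5 kb (left) and 703 regions of 5 to 10 kb (right), coloured by the length of the parent clusters, with the line of equal scores. The cloud is broader on the left, with a Spearman's rho of 0.459, than on the right, with 0.677.

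Of the 6 regions with the largest rank differences, taken as 3 in each direction, 5 were parts of a cluster of 10 kb or more in 1 replicate. Upper 25% in replicate 1 together with lower 25% in replicate 2 held for 22 regions, and the opposite held for 13. The widest gap was on 3L from 3824968 to 3828467, with 2.01 in replicate 1 from a cluster of 16733 bp and 0.609 in replicate 2 from a cluster of 3500 bp. The next regions ranked higher in replicate 1 were 3R from 9463536 to 9466750 (1.80 in replicate 1 and 0.577 in replicate 2) and 3L from 21915489 to 21918929 (1.81 and 0.646), again with the long cluster in replicate 1. In the opposite direction, 3L from 3124438 to 3127842 scored 0.510 in replicate 1 and 1.68 in replicate 2, where its cluster had 27739 bp. A further one, 3L from 12728611 to 12733558, scored 0.671 and 1.66 although its parents were 4948 and 6153 bp long. The last of this rule was 3L from 16974204 to 16977473, with 0.699 in replicate 1 and 1.67 in replicate 2. In each of these 6 the longer parent carried the higher score, and the exception to a long cluster was the one from 12728611. Over all regions with a long parent in replicate 1 alone, 71.1% scored higher in replicate 1, and of those with a long parent in replicate 2 alone, 24.5% did. With both parents of 3 to 10 kb the share was 48.1%.

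Some regions were compact and yet scored as high as the broad stretches. The lower of both scores exceeded 1.42, the median of stretches of 10 kb or more, in 341 of the 1481 regions (23.0%), where 13.4% of all 4101 stretches on the 3 arms did. By class this was 341 regions, 16 stretches under 3 kb and 194 of 10 kb or more, and since score and length went together nothing is read from the comparison. The share was 10.4% at 3 to 4 kb, 17.4% at 4 to 5 kb, 28.5% at 5 to 6 kb and 48.2% at 9 to 10 kb. Many of the longer regions carried the score of a cluster of 10 kb or more. At 9 to 10 kb, 9 of the 40 above 1.42 had both parents of 3 to 10 kb, out of 15 such regions. At 3 to 4 kb it was 40 of 48, out of 346 such regions. By arm, the share of all regions above 1.42 was 18.4% on 2L, 24.8% on 3L and 24.8% on 3R. Of the 341, 238 had both parents of 3 to 10 kb, and 88 of these were under 5 kb. The 90th percentile of the stretches of 10 kb or more, 1.89, was exceeded by 58 of all 1481 regions and by 46 of the 948 with both parents of 3 to 10 kb. The share of stretches of 10 kb or more above this limit is fixed by its definition. The share over all 4101 stretches was not counted, so nothing is read from these numbers.

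The 10 highest-scoring regions with both parents of 3 to 10 kb lay on all 3 arms and were 3764 to 7314 bp long. The first, on 3R from 255374 to 260272, scored 2.82 in replicate 1 and 2.67 in replicate 2. Its parents were 5277 and 4948 bp long, so nearly all of each was shared. The nearest stretch of 10 kb or more was 131845 bp away. On 3L, the region from 19786805 to 19792782 scored 2.47 and 2.41 and stood 7572 and 7467 bp from its neighbours on either side.

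There were 4 on 2L. The region from 21677388 to 21682464 scored 2.35 in replicate 1 and 2.37 in replicate 2, and that from 19491096 to 19498409 scored 2.85 and 2.32. A shorter one of 3996 bp, from 22165339 to 22169334, scored 2.56 and 2.32 and was 774953 bp from any stretch of 10 kb or more. It lay near the centromere end of the arm, with 77125 bp free of shared marking on its high-coordinate side. The fourth, from 8365342 to 8370433, scored 2.48 and 2.27. Its replicate 2 cluster of 7458 bp ran on across a gap of 423 bp into the neighbouring stretch.

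The remaining 4 were under 5 kb. On 3R, the region from 27041095 to 27045980 (4886 bp) scored 2.35 in replicate 1 and 2.30 in replicate 2, with clusters of 5015 and 4902 bp, so its edges were nearly the same in both. That from 11068493 to 11072805 (4313 bp) scored 2.85 and 2.26, and that from 10715413 to 10720046 (4634 bp) 2.45 and 2.22. On 3L, the shortest of the 10, from 14530275 to 14534038 (3764 bp), scored 2.58 and 2.22 and bordered on 304100 bp without a shared stretch. Distances of the 10 from the nearest stretch of 10 kb or more ran from 31221 to 774953 bp.

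The 5 regions with the lowest scores were all close to 3 kb long. The lowest was on 3L from 13005372 to 13008454 (3083 bp), with 0.421 in replicate 1 and 0.770 in replicate 2. On 3L from 20465032 to 20468077 the scores were 0.437 and 0.717. The other 3 were low in 1 replicate alone. The region on 3L from 9461146 to 9464220 scored 1.42 in replicate 1, from a cluster of 12665 bp, and 0.463 in replicate 2, from a cluster of 3075 bp. On 3R the reverse was seen, with 0.477 and 1.19 between 25205651 and 25208652 and 0.486 and 1.33 between 22395195 and 22398215.

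Most regions had another shared stretch close by, and in many cases a cluster that was whole in 1 replicate was interrupted there in the other. The gap to the nearest stretch of any length had a median of 806 bp, and 812 regions (54.8%) had a gap of 1 kb or less. In 780 regions (52.7%) a cluster of 1 replicate ran across that gap, 414 times in replicate 1 and 366 times in replicate 2. Gaps so bridged had a median of 277 bp. The nearest gap of the other 701 regions was present in both lists and had a median of 2398 bp. On neither side was there a bridge in 671 regions (45.3%), and 198 (13.4%) were bridged on both sides. Stretches under 3 kb and those of 10 kb or more had similar values, with 53.9% and 55.5% of nearest gaps bridged and median gaps of 860 and 683 bp. The median nearest gap of the regions depended on the processing. It was 1426.5 bp for the 948 regions with both parents of 3 to 10 kb, 2561 bp after clusters under 1 kb apart were merged, 2805.5 bp in the upper 50% by score and 3781.5 bp among stretches that covered 50% of both parents.

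Isolated regions were few. At least 10 kb on each side was free of shared marking in 102 regions (6.89%), against 7.35% of stretches under 3 kb and 4.37% of stretches of 10 kb or more. Of these 102 regions, 94 had both parents of 3 to 10 kb, their median length was 4959.5 bp, and 34 (33.3%) scored above 1.42 in both replicates. That share was 23.0% among all regions of the set and 25.1% among those with both parents of 3 to 10 kb. In 14 regions 50 kb or more was free on each side. The most isolated was on 3L from 11992160 to 11995659, 136058 and 113338 bp from its neighbours, and scored 1.17 in replicate 1 and 1.01 in replicate 2. On the same arm, the region from 15329877 to 15335253 scored 1.24 and 1.26, and that from 15714783 to 15722155 scored 1.11 and 1.06. On 2L the region from 14490661 to 14494561 was high in replicate 1 alone, at 2.20 against 1.17, while that from 2577671 to 2585728 had 2.12 and 1.98. All 5 had both parents of 3 to 10 kb, and 1 of them, the last, exceeded 1.42 in both replicates.

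Along the arms, regions of 3 to 10 kb were mixed with the other lengths. Of their 2961 immediate neighbours, 1132 (38.2%) were of the same length class, which made up 36.1% of all stretches. Another 51.0% were under 3 kb (54.4% of all stretches), and 10.7% were 10 kb or more (9.49% of all stretches). The 1481 regions formed 580 single regions, 205 pairs and 80 runs of 3 without a shorter or longer stretch between them. The longest run had 10 regions and spanned 121.9 kb of 3L from 21426826 to 21548676, of which 42.5% was marked. Its regions were 3004 to 8773 bp long with lower scores of 0.968 to 1.76, and 6 of them had both parents of 3 to 10 kb.

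The nearest stretch of 10 kb or more was at a median distance of 38345 bp. For stretches under 3 kb the median was 51472 bp, and from one stretch of 10 kb or more to the next it was 26354 bp. Less than 1 kb separated 111 regions (7.49%) from such a stretch, 251 lay at 1 to 10 kb, 468 at 10 to 50 kb, 257 at 50 to 100 kb and 394 (26.6%) at 100 kb or more. Many of the nearest were pieces of the same cluster, since 87 of the 111 shared a parent cluster with a stretch of 10 kb or more, as did 130 regions in all. Without those 130 the median distance was 45467 bp. It was shorter in each list alone, at 28421.5 bp for the 3 to 10 kb clusters of replicate 1 and 24246.5 bp for those of replicate 2, and was 23565 bp after merging clusters under 1 kb apart. Another region of 3 to 10 kb was usually closer, at a median of 4475 bp, and in 309 regions (20.9%) the stretch of 10 kb or more was the nearer of the 2. The arms held 1481 regions of 3 to 10 kb and 389 stretches of 10 kb or more. The more numerous class is more often the nearer one, so nothing is read from this share.

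**Figure D4:**
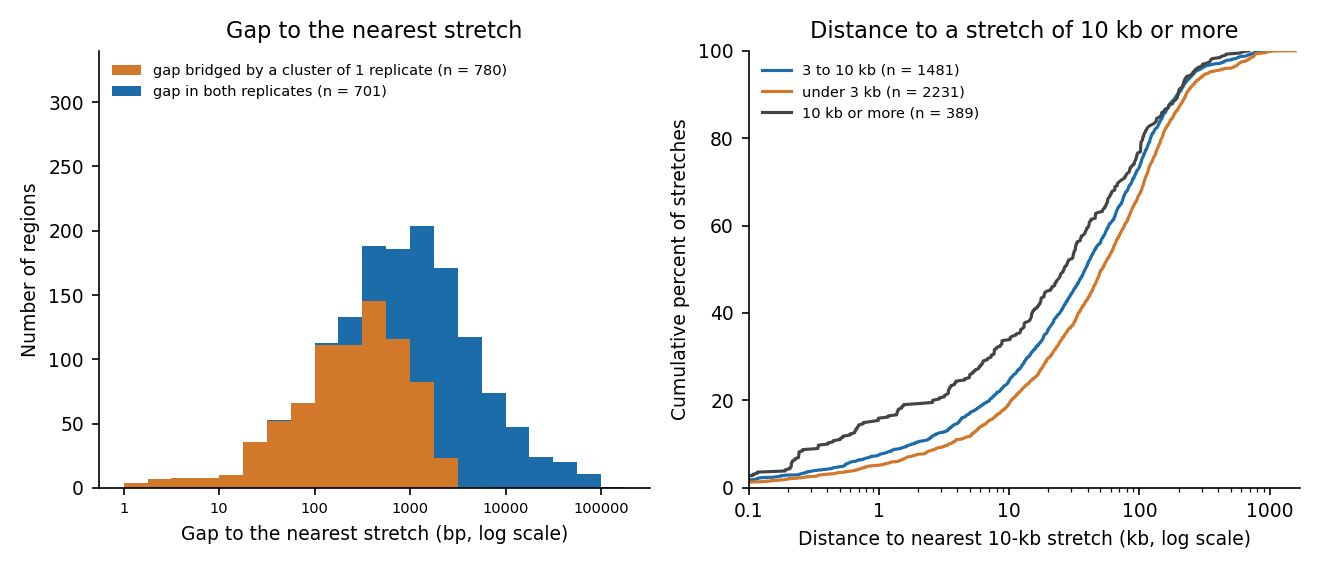
Left, number of regions (vertical axis) by gap to the nearest shared stretch (horizontal axis, bp, log scale), split into 780 gaps that a cluster of 1 replicate bridged and 701 present in both replicates. Right, cumulative percent (vertical axis) of regions of 3 to 10 kb, stretches under 3 kb and stretches of 10 kb or more by distance to the nearest other stretch of 10 kb or more (horizontal axis, kb, log scale), where the curve of the 3 to 10 kb regions runs between the other 2 over most of the range.

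Scores showed almost no relation to the distance from a broad stretch. The lower score had a median of 1.10 at less than 1 kb, 1.07 at 1 to 10 kb, 1.08 at 10 to 50 kb, 1.12 at 50 to 100 kb and 1.17 at 100 kb or more. Spearman's rho of distance with the lower score was 0.0719 over the 1481 regions (Pearson's r = 0.0693). Regions of 3 to 5 kb alone had medians of 0.981, 0.921, 0.963, 0.966 and 1.04 over the same 5 distance classes, and regions of 5 to 10 kb had 1.21, 1.16, 1.23, 1.28 and 1.27. Regions above 1.42 in both replicates lay 45736 bp from the nearest stretch of 10 kb or more in the median, and the remaining regions 36513 bp. The gap to the nearest stretch of any length had a rho of 0.154 with the lower score (Pearson's r = 0.0903).

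The 5 regions farthest from a broad stretch lay together on 2L. They ran from 15036025 to 15039327, from 15064293 to 15068044, from 15113037 to 15117967, from 15248886 to 15253571 and from 15265871 to 15272335, and the nearest stretch of 10 kb or more was 801884 to 1014745 bp away. Their scores in that order were 1.30, 0.802, 2.01, 2.09 and 1.41 in replicate 1 and 1.42, 0.726, 1.82, 1.23 and 1.71 in replicate 2. Regions this far from any broad stretch thus ranged from weak to strong, and 1 of the 5 exceeded 1.42 in both replicates.

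Windows of 500 kb differed widely in the number of regions. The 150 full windows held a median of 10 regions, with a middle 50% from 6 to 13 and a maximum of 24. The densest was on 3R from 1000001 to 1500000 with 24 regions over 29.2% of its length. On the same arm 22 regions lay in the window from 5000001 to 5500000 and 22 in that from 10000001 to 10500000. Then came 3 windows of 3L with 19 regions each, from 4000001, from 8500001 and from 17500001. In the order named, 12, 11, 15, 10, 9 and 10 of the regions had both parents of 3 to 10 kb. The others in these windows were parts of a cluster of 10 kb or more in at least 1 replicate. The 4 full windows without a region were at the centromere ends of 2L, from 22500001, and of 3L, from 23000001, 23500001 and 24000001.

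Density by position along the arm followed no common pattern. In the third of the arm nearest the centromere there were 13.6 regions per Mb on 2L and 16.9 on 3L, below the 20.2 and 22.2 per Mb in the third nearest the telomere. On 3R the centromere side had 22.5 per Mb and the telomere side 20.1. Across the 150 windows, the share covered by regions of 3 to 10 kb had a Spearman's rho of 0.355 with the share covered by stretches of 10 kb or more (Pearson's r = 0.364) and of 0.430 with that covered by stretches under 3 kb (r = 0.421). The windows share libraries and divide the same lengths, so these values only describe the lists. In 14 windows with regions there was no stretch of 10 kb or more.

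The replicate-set list of the authors, which covers both ChIP libraries, joined many of the regions into longer clusters. Each of the 1481 regions overlapped exactly 1 of its clusters. That cluster was 3 to 10 kb long for 847 regions (57.2%) and 10 kb or more for 634 (42.8%), which lay in 387 clusters. Among regions with both parents of 3 to 10 kb, 800 (84.4%) had a replicate-set cluster of the same class, and of the 533 with a longer parent, 47 (8.82%) did. The 800 regions that were 3 to 10 kb long in all 3 lists had a median lower score of 1.17, and 219 of them (27.4%) exceeded 1.42 in both replicates. Among all regions with both parents of 3 to 10 kb the share was 25.1%, and in the whole set 23.0%. The replicate-set list was made from the same libraries and adds no independent support. The highest-scoring region of the set, on 3R from 255374, lay in a replicate-set cluster of 12497 bp, whereas the other 9 of the first 10 lay in clusters of 4155 to 7595 bp.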

How the data were processed

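ChIP-seq of H4K20me1 was measured in 2 ChIP and 2 input libraries of adult fly heads. Per the submitters' processing notes, the read aligner Bowtie 0.12.7 was used. Deposited by the authors were lists of enriched clusters on FlyBase release 5, per the file headers, 1 for each ChIP replicate and 1 for the replicate set. Per the labels, inputs and ChIP libraries were matched by number. Each deposited cluster carries a score whose scale and log base are not stated. The caller and its settings are not given in the sources used here. Clusters shorter than 1301 bp are not in the replicate lists.

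Abutting clusters of a list were joined (8 in replicate 1, 15 in replicate 2, touching 12 regions; length-weighted mean score), and the lists were then intersected by base. Gaps and distances run from edge to edge on an arm. No test was made, because the 2 ChIP libraries form 1 group and regions are not replicates. Read depth is unknown, so no interval was computed. The interval arithmetic was checked on 20 simulated pairs of lists. Members, lists and comparisons were chosen with earlier results of these data known. Positions were named by rule: the 10 highest lower scores with both parents of 3 to 10 kb, the 5 lowest, the 3 largest rank differences each way, the 5 most isolated, the 5 farthest from a broad stretch, the 3 with most overhang, the densest windows, the longest run and the 2 stretches on each side of each limit. The gene table at hand is on another release, so genes and sequences are not given. Python 3.11.15, numpy 2.4.6, pandas 2.3.3, scipy 1.17.1 and matplotlib 3.10.9 were used.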

Additional observations from a re-analysis of the deposited data

How the results depend on the processing

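Of 58 values under 7 alternatives, 26 stayed close to the reported value and 32 moved. Close meant within 1.5 times for the number of regions, within the 95% Wilson interval for the share with both parents of 3 to 10 kb, within 0.01 for the rho of both scores, and within the SD of the 2 lists taken alone for the rest. The Wilson interval counts regions as if they were independent, which they are not. It served only as a limit for this label and measures no spread between libraries. The limit for the number of regions, 1481, was wide. Counted as close were 1060 in the upper 50% by score, 1066 after merging and 1022 covering 50% of both parents. So were 1554 in replicate 1 alone and 1638 in replicate 2 alone. For the shares above the broad median given next, that median was taken anew from the stretches of 10 kb or more within each alternative. A replicate taken alone has a single score per cluster, which replaced the lower score. These shares and the one reported for the whole set therefore do not rest on a common limit. With 1 replicate left out, the regions held 39.4% to 39.9% of the marked length, 22.3% to 25.6% exceeded the broad median, the nearest gap was 756.5 to 1023 bp, and the distance to a stretch of 10 kb or more was 24246.5 to 28421.5 bp. The upper 50% by score gave 45.4% of the marked length, a median lower score of 1.25, a rho of length with score of 0.229 and of both scores of 0.554, 31.5% above the broad median and a nearest gap of 2805.5 bp. Merging clusters under 1 kb apart gave 31.4% of the marked length, 57.9% with both parents of 3 to 10 kb, a median score of 1.00, rho values of 0.256 and 0.611, a gap of 2561 bp and a distance of 23565 bp. Stretches covering 50% of both parents gave 41.8% of the marked length, 85.7% with both parents of 3 to 10 kb, a median score of 1.16, rho values of 0.329 and 0.709, a gap of 3781.5 bp and a distance of 51084 bp. Keeping only regions with both parents of 3 to 10 kb, an alternative added after the data were seen, left 948 regions with 25.4% of the marked length, rho values of 0.375 and 0.687, a gap of 1426.5 bp and a distance of 45093.5 bp. Not joining abutting clusters, also added later, gave 1485 regions. Merging and stricter lists remove close neighbours by construction, so the nearest gap widens with them; for the other values the cause was not tested. Spacing is therefore the least settled description, and depth is unknown. No paired analysis was possible because no cluster list of the input libraries was analysed here.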
